A study of Mus musculus with 6 samples.

Results

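Aminoacyl-tRNA synthetases were examined in RNA-seq libraries of mouse group 3 innate lymphoid cells (ILC3s), lymphocytes of mucosal tissue that make interleukin 22. The 36 genes were chosen by name and their identifiers looked up in a table of gene symbols: 20 cytosolic enzymes or subunits and 16 mitochondrial enzymes, whose symbols end in 2, of 55401 identifiers in the deposited count table. Per the labels, all cells were taken from wild type mice, pups in the protocol text, out of the lamina propria of the small intestine, after pretreatment with vehicle (3 libraries) or PEox (3 libraries). PEox is not spelled out in the labels; in ferroptosis research it usually stands for oxidised phosphatidylethanolamine. The sources used here do not give its dose, the exposure time, the age in days or whether animals were pooled. The labels do not state whether each library derives from a different animal; p-values therefore describe the spread among these 6 libraries alone, which may be technical.

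Each synthetase joins 1 amino acid to the tRNAs that carry its codons, in a reaction that spends ATP, and so supplies the ribosome with charged tRNA. Mammalian cells use separate nuclear genes for the enzymes of the cytosol and for those of the mitochondrion, with exceptions: Gars and Kars each encode both forms, and Eprs encodes a fused glutamyl- and prolyl-tRNA synthetase. Several cytosolic enzymes sit in a multi-synthetase complex held together by scaffold proteins. Many cytosolic synthetase genes are known targets of ATF4, the transcription factor of the amino acid response, and uncharged tRNA is the signal read by the kinase GCN2 (Eif2ak4) upstream of it.

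Total counts ranged from 56252806 to 66849230 per library, and TMM scaling was used throughout. The protocol text named sorted epithelial cells with EpCAM and without CD45, whereas the cell type label named ILC3s. The 15 ILC3 marker genes, of which 7 fell and 4 rose, summed to 13266 to 13493 CPM in vehicle and 7322 to 7384 CPM in PEox (CPM, counts scaled to library size). Most of these sums came from Il22 (means of 6724 CPM in vehicle and 2513 in PEox) and Id2 (3004 and 1684 CPM). Kit, Tcf7, Tox and Il18r1 were the genes that rose. The 11 epithelial marker genes, of which 6 were tested and 3 fell, summed to 97.8 to 111 CPM in vehicle and 59.2 to 67.2 CPM in PEox, Epcam giving 48.6 to 55.6 and 28.5 to 35.8 CPM, with Cdx2 at 0 in all 6 libraries and Fabp1 and Fabp2 at 0 in the PEox libraries. Other marker lists moved between the groups, with their sums in parentheses. All 8 genes of dividing cells fell (745 to 775 CPM in vehicle and 92.8 to 106 CPM in PEox), as did all 7 of B and plasma cells (265 to 285 CPM in vehicle and 38.3 to 43.8 CPM in PEox). So did 5 of 6 tested of ILC1 and natural killer cells (293 to 304 CPM in vehicle and 81.8 to 86.2 CPM in PEox; Klra8 was at 0 in PEox), 5 of 7 of T cells (107 to 122 CPM in vehicle and 43.7 to 55.1 CPM in PEox; Cd8a was at 0 in PEox, while Cd4 rose by 0.80) and 5 of 6 of mast cells and basophils (148 to 156 CPM in vehicle and 19.5 to 23.2 CPM in PEox). Of 8 macrophage and dendritic cell genes 3 fell (207 to 219 CPM in vehicle and 115 to 135 CPM in PEox), and of 4 tested ILC2 genes 2 fell (146 to 166 CPM in vehicle and 109 to 112 CPM in PEox; Il13 was at 0 in PEox). Erythroid genes rose in 5 of 6 cases (2754 to 2802 CPM in vehicle and 5121 to 5808 CPM in PEox), and among 6 tested genes of stroma and endothelium 3 rose and 1 fell (210.1 to 236 CPM in vehicle and 304 to 334 CPM in PEox; Cdh5 was at 0 in PEox). Synthetases are made by every cell type, the part of these shifts in the results below was not tested, and in bulk RNA fewer cells of a type and less RNA per cell cannot be told apart.

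All 36 genes were present and all 36 passed the filter on low counts, the lowest count of any member in any library being 195. The contrast addresses how transcript levels differed between the PEox and the vehicle libraries as bulk RNA, shifts in cell types included. In edgeR's quasi-likelihood test, with p-values adjusted by Benjamini and Hochberg's method over 18253 genes, 13 of the 20 cytosolic genes changed (65.0%), 7 higher and 6 lower in PEox, against 37.1% of all genes tested (18.3% higher and 18.8% lower). Of the 16 mitochondrial genes 5 changed (31.2%), 2 higher and 3 lower. The changes were small. The median absolute log2 fold change was 0.31 for each class against 0.49 for all tested genes, and 1 of the 36 genes, Ears2, differed by 2-fold or more, where 3647 of the 18253 tested genes did, whether called or not. All tested genes include ones with fewer counts than any member, and genes of a like level were not compared. Neither class moved as a block. Its median log2 fold change was 0.0048 for the cytosolic and -0.073 for the mitochondrial genes beside 0.0007 for all genes. CPM values of the groups were fully apart for 13 cytosolic and 6 mitochondrial genes, 65.0% and 37.5% of each class, against 50.6% of all tested genes. Cytosolic genes were also counted more deeply, with a median of 136 CPM in vehicle against 25.8 CPM for mitochondrial ones, and the median standard error of a log2 fold change was 0.088 against 0.13. The share of 37.1% also covers genes counted less deeply than the members. With a filter of 5 CPM in 3 libraries, 10743 genes were tested, 3322 being higher and 3185 lower. That share of all genes was far above 37.1% and near the share of the cytosolic class, with the mitochondrial class below it. There 7 cytosolic genes were higher and 6 lower, and 3 mitochondrial genes were higher and 4 lower.

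**Figure D1:**
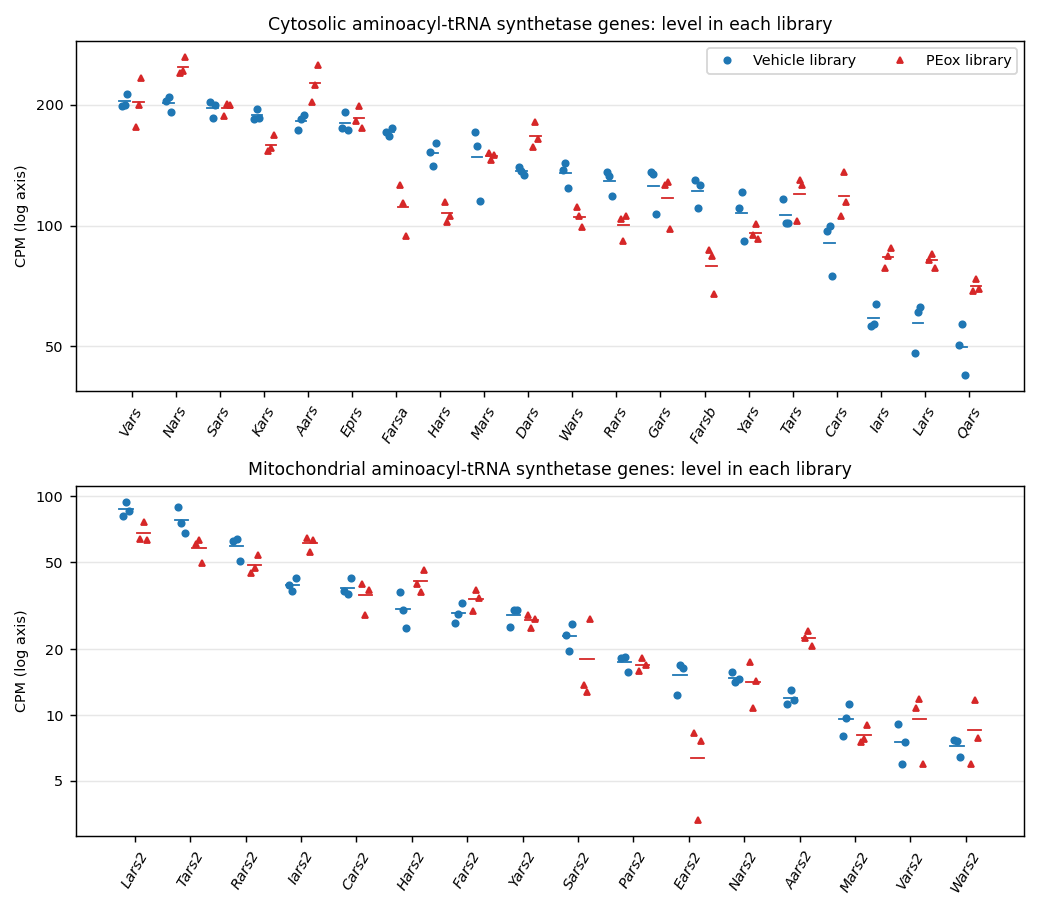
Level of each synthetase gene in CPM on a log axis, cytosolic above and mitochondrial below, ordered by vehicle mean. Circles are vehicle libraries, triangles PEox libraries and short lines the group means; cytosolic vehicle means run from 49.8 to 204 CPM and mitochondrial ones from 7.24 to 87.1 CPM.

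Per kilobase of transcript (CPM divided by the length of the principal transcript in GENCODE M21, a level that allows genes to be compared), the median was 49.6 in vehicle and 43.5 in PEox for cytosolic genes and 8.31 and 10.4 for mitochondrial ones. In vehicle the highest level per kilobase belonged to Farsa at 93.8, followed by Kars at 86.0 and Hars at 76.1. Nars, the asparaginyl enzyme, stood at 73.6 there. In PEox the order at the top changed to Nars at 90.6, Dars at 76.9 and Kars at 72.7, and Farsa was the fourth at 61.0. Among cytosolic genes Iars (13.3), Lars (14.4) and Qars (17.8) had the lowest level per kilobase in vehicle, and these were the cytosolic genes with the 3 largest increases. Rars2 led the mitochondrial genes per kilobase in both groups, at 31.6 and 25.96.

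The cytosolic genes that fell furthest were the 2 subunits of phenylalanyl-tRNA synthetase, an enzyme built from both proteins. Farsa (ENSMUSG00000003808), the alpha subunit, lay at 171, 167 and 175 CPM in vehicle libraries 1 to 3 and at 126, 114 and 94.2 in PEox libraries 1 to 3. Farsb (ENSMUSG00000026245), the beta subunit, lay at 129.8, 110.4 and 126 CPM in vehicle and at 87.2, 83.9 and 67.4 in PEox. In both genes every PEox library was below every vehicle library, with PEox library 3 lowest. The log2 fold changes were equal to 2 decimals, -0.62 ± 0.10 (SE; edgeR adjusted p = 0.00158) for Farsa and -0.62 ± 0.11 (SE; edgeR adjusted p = 0.0025) for Farsb. The log2 ratio of Farsa to Farsb counts was 0.40, 0.60 and 0.48 in vehicle and 0.53, 0.44 and 0.48 in PEox, so the ratio between the subunit transcripts overlapped between the groups.

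Hars, the histidyl enzyme, was measured at 153, 141 and 161 CPM in vehicle and 115, 102 and 106 in PEox, which is -0.49 ± 0.071 on the log2 scale (± SE; by edgeR, adjusted p = 0.00087). Rars, the arginyl enzyme, gave 136, 133 and 118 CPM and 104, 91.7 and 106 in the same order and fell by 0.36 (edgeR adjusted p = 0.00817). Kars, the lysyl enzyme of both compartments, gave 184, 195 and 186 and 153, 156 and 168 CPM and fell by 0.24 (edgeR adjusted p = 0.00998). In all 3 genes the PEox libraries lay below the vehicle libraries with no overlap. The calls of Rars and Kars were lost with scaling by library size alone (-0.23, adjusted p = 0.0562, and -0.11, adjusted p = 0.192), a scaling that moved the median log2 fold change of all genes from 0.0007 to 0.14, and Kars also did not pass without vehicle library 2 (0.0528), the adjusted p in parentheses.

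Wars, the tryptophanyl enzyme, is known as a gene that interferon gamma induces. It lay at 138, 143 and 124 CPM in vehicle and 111, 106 and 99.0 in PEox, below vehicle in every PEox library, at -0.36 ± 0.074 on the log2 scale (± SE; by edgeR, adjusted p = 0.00577). Of 7 genes of the interferon gamma response, 6 fell and 1 rose (median -0.72). Irf1, a transcription factor gene of that response, fell by 0.86 and the chemokine gene Cxcl10 by 2.83, while Socs1, an inhibitor of cytokine signalling, rose by 0.40 on the log2 scale.

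The 7 cytosolic genes that rose did so by 0.29 to 0.52 on the log2 scale. Lars, the leucyl enzyme, which also serves as a leucine sensor for mTORC1, rose from 48.1, 60.8 and 62.7 CPM to 82.0, 85.2 and 78.4 (log2 fold change 0.52 ± 0.11, SE; edgeR adjusted p = 0.00551). Iars, the isoleucyl enzyme, rose from 56.1, 56.7 and 63.9 to 78.3, 84.1 and 88.0 CPM (0.50 ± 0.081, SE; edgeR adjusted p = 0.00159). Qars, the glutaminyl enzyme, rose from 50.4, 56.7 and 42.3 to 68.9, 73.4 and 69.5 CPM (0.50 ± 0.11, SE; edgeR adjusted p = 0.00719). For each of them the lowest PEox library was above the highest vehicle library. Nars, for asparagine, gave 205, 209 and 192 CPM in vehicle and 239.9, 243 and 264 in PEox (log2 fold change 0.30, edgeR adjusted p = 0.00397). Dars, for aspartate, gave 139.7, 137 and 134 and 157, 181 and 164 CPM (0.29, edgeR adjusted p = 0.00819). Both also separated the groups without overlap.

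Aars, the alanyl enzyme, and Cars, the cysteinyl enzyme, lost their call most often among the increases. Aars gave 173, 184 and 189 CPM in vehicle and 203, 224 and 252 in PEox (0.32 ± 0.080, SE; edgeR adjusted p = 0.015). Cars gave 96.7, 99.6 and 75.1 and 106, 136 and 115 CPM (0.39 ± 0.13, SE; edgeR adjusted p = 0.0428). The groups did not overlap in either gene, but PEox library 1 was within 10 CPM of the highest vehicle library for Cars. The Aars call was lost without vehicle library 1 (0.0693) or vehicle library 2 (0.055) and that of Cars without PEox library 2 (0.141), PEox library 3 (0.0754), vehicle library 1 (0.072), vehicle library 2 (0.0552) or vehicle library 3 (0.121), adjusted p in parentheses, and Cars also did not pass with no low count filter (0.0844).

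The other 7 cytosolic genes did not pass the test. Sars, the seryl enzyme, had the same mean in both groups, 196 ± 9.17 CPM with vehicle against 196 ± 7.62 CPM with PEox (SD, n = 3 each). Vars, the valyl enzyme, had 204 ± 7.80 and 203 ± 29.0 CPM, and Mars, the methionyl enzyme, 148 ± 29.4 and 149 ± 2.89 CPM (SD, n = 3 each). Mars was spread widely among the vehicle libraries, at 171, 158 and 115 CPM, and closely among the PEox libraries, at 151, 146 and 149.7. Eprs (0.042 ± 0.066), Gars, the glycyl enzyme (-0.10 ± 0.13), Tars, the threonyl enzyme (0.17 ± 0.10), and Yars, the tyrosyl enzyme (-0.17 ± 0.10), had log2 fold changes (± SE) within 2 standard errors of 0. Tars was called higher without PEox library 1 (0.0449) and under library size scaling (0.31, adjusted p = 0.0415), and Yars lower without vehicle library 3 (0.033), adjusted p in parentheses.

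**Figure D2:**
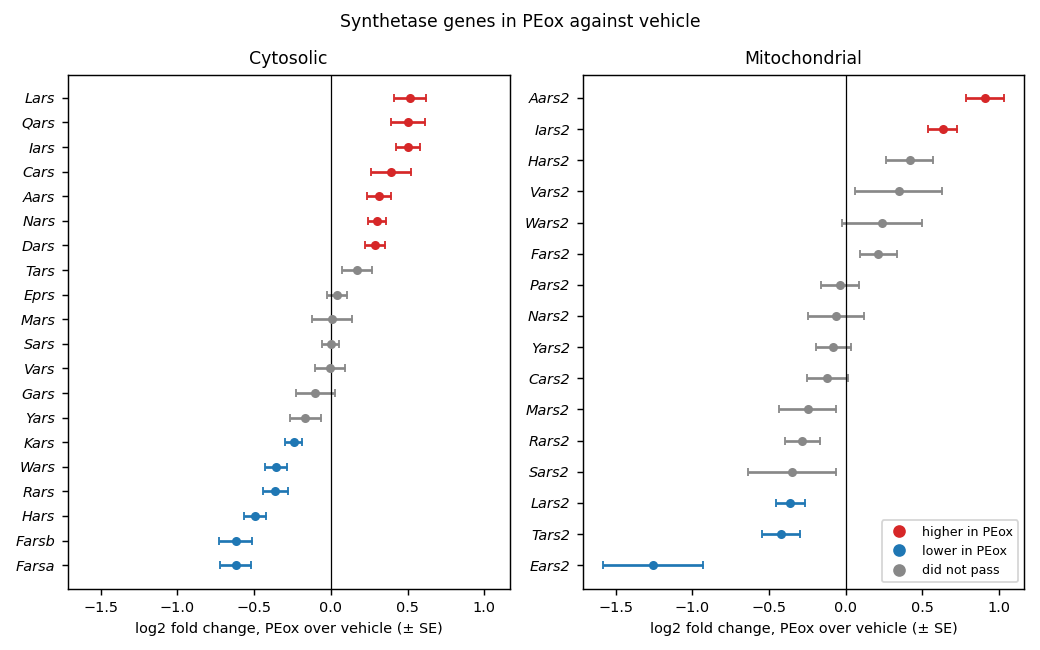
Log2 fold change of PEox over vehicle for each synthetase gene, cytosolic on the left and mitochondrial on the right; points are edgeR estimates and bars their standard errors. Red genes were higher and blue genes lower in PEox at an adjusted p under 0.05; cytosolic values lie between -0.62 and 0.52, whereas mitochondrial ones reach from -1.26 to 0.91.

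Enzymes of the multi-synthetase complex went both ways. Of its 8 enzymes Dars, Iars, Lars and Qars rose, Kars and Rars fell, and Eprs and Mars did not pass (median 0.17). Of the 12 cytosolic genes outside the complex 3 rose and 4 fell (median -0.053). The scaffold gene Aimp2 fell from 119, 123 and 118 CPM to 66.1, 65.4 and 65.1, or -0.87 ± 0.056 on the log2 scale (± SE; by edgeR, adjusted p = 1.34e-05), more than any of the enzymes it holds. Eef1e1, which encodes the scaffold protein AIMP3, fell by 0.46 (edgeR adjusted p = 0.0243), and Aimp1 lay at -0.23 without passing (edgeR adjusted p = 0.211). The structural classes of synthetase were both divided. Among the 9 cytosolic class I genes, which share a Rossmann-type catalytic fold, 4 rose and 2 fell, and among the 10 class II genes, built on an antiparallel sheet, 3 rose and 4 fell; Eprs belongs to both.

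Known ATF4 targets were then set beside the other cytosolic genes. Of 12 synthetase genes listed as ATF4 targets, Aars, Cars, Iars, Lars and Nars rose, Wars fell and 6 did not pass (median 0.11). Of the 8 others, Dars and Qars rose, 5 fell and Vars did not pass (median -0.30). With the trend on transcript length and GC content removed, the calls of Aars, Cars and Lars were lost and Sars was called lower. The calls among the 8 others did not change there. The list was written with earlier results of these data known, and the difference between these subsets was not tested. Atf4 itself lay at 246, 280.4 and 288 CPM in vehicle and 243, 228 and 204 in PEox and fell by 0.27 (edgeR adjusted p = 0.0306); its activity is set largely by translation of its mRNA, which was not measured. Of the 20 genes of the integrated stress response 8 rose and 6 fell. Trib3 rose by 0.78, Ppp1r15a by 0.84 and the amino acid transporter gene Slc3a2 by 0.89, while Ddit3, which encodes CHOP, fell by 0.38 and the serine synthesis genes Psat1 and Phgdh by 1.08 and 0.82. Asns, the asparagine synthetase gene, did not pass, at 62.8, 51.2 and 55.7 CPM in vehicle and 51.4, 62.1 and 61.0 in PEox. The GCN2 gene Eif2ak4 rose by 0.90 (edgeR adjusted p = 0.0242), with PEox library 3 at 11.7 CPM close to the vehicle libraries (10.1, 10.7 and 9.98 CPM). The rise was not particular to GCN2. Eif2ak3 and Eif2ak1, other kinase genes of the integrated stress response, rose by 1.15 (edgeR adjusted p = 0.00296) and 0.31 (edgeR adjusted p = 0.00455).

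Promoter sequence was searched for TGATGNAA, the core of the element that ATF4 binds together with C/EBP proteins, on both strands of the 250 bases before the annotated start (RefSeq, GRCm38.p6; 27 of the 36 genes had an entry). The motif was found for 3 of 13 cytosolic and for none of 14 mitochondrial genes, against 3.45% of all 32851 promoters. The 3 stretches are shown because they are the members that hold these letters; each is printed 5′ to 3′ on the strand of the gene with the motif, here in reverse complement, in capitals. They lie at chr8:111033704-111033763 on the plus strand, chr6:55037945-55038000 on the plus strand and chr15:11399659-11399699 on the minus strand.
Aars: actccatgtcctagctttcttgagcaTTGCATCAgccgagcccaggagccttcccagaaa
Gars: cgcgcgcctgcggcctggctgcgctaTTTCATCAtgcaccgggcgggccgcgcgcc
Tars: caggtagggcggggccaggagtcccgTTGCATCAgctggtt
In Aars, Gars and Tars the motif begins 112, 30 and 15 bases before the start. Of these 3 genes Aars rose, while Gars (136, 135 and 107 CPM in vehicle, 126, 128 and 97.8 in PEox) and Tars (116, 101 and 102 and 103, 130.1 and 126 CPM) overlapped between the groups. A match is a description of letters and shows no binding.

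Mitochondrial synthetases held the largest changes of the family. Aars2 (ENSMUSG00000023938), the mitochondrial alanyl enzyme, rose from 11.3, 13.0 and 11.7 CPM in vehicle to 22.4, 24.3 and 20.8 in PEox, or 0.91 ± 0.13 on the log2 scale (± SE; by edgeR, adjusted p = 0.000728). Iars2 (ENSMUSG00000026618), for isoleucine, rose from 39.3, 36.7 and 42.3 to 64.5, 55.5 and 63.2 CPM (0.63 ± 0.093, SE; edgeR adjusted p = 0.00103). For both, all PEox libraries were above all vehicle libraries, and the call held when any library was left out. Ears2 (ENSMUSG00000030871), the mitochondrial glutamyl enzyme, moved the other way, from 12.4, 16.9 and 16.5 to 8.26, 3.30 and 7.58 CPM (-1.26 ± 0.33, SE; edgeR adjusted p = 0.0167). PEox library 2 was the lowest for Ears2, below the other two, and the call was lost without vehicle library 2 (0.0685) or vehicle library 3 (0.061), adjusted p in parentheses.

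Lars2 and Tars2, the mitochondrial leucyl and threonyl enzymes, had the highest CPM of the class in vehicle and were both lower in PEox. Lars2 gave 81.1, 94.7 and 85.5 CPM in vehicle and 64.1, 76.4 and 63.1 in PEox (-0.36 ± 0.10, SE; edgeR adjusted p = 0.0193). Tars2 gave 89.0, 75.4 and 68.3 and 60.8, 63.4 and 49.8 CPM (-0.42 ± 0.12, SE; edgeR adjusted p = 0.0295). Neither overlapped between the groups, but both calls were weak. Lars2 did not pass without PEox library 1 (0.0634), PEox library 3 (0.0612), vehicle library 2 (0.0859) or vehicle library 3 (0.0501), nor Tars2 without PEox library 1 (0.0538), PEox library 3 (0.0827), vehicle library 1 (0.109) or vehicle library 2 (0.0736), adjusted p in parentheses, and neither passed under library size scaling (-0.22 and -0.28, adjusted p = 0.105 and 0.107). No mitochondrial gene was called lower without vehicle library 2 (edgeR), and 1 was without PEox library 1.

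The 11 mitochondrial genes that did not pass had log2 fold changes between -0.35 and 0.42. Hars2, for histidine, lay at 36.6, 30.3 and 24.96 CPM in vehicle and 39.6, 36.7 and 46.2 in PEox, with PEox library 2 just above vehicle library 1 and so no overlap, and missed the threshold (edgeR adjusted p = 0.0674). It passed with DESeq2 (adjusted p = 0.0213), with limma-voom (0.0498), with a filter of 5 CPM in 3 libraries (0.0245), under library size scaling (0.0213) and without vehicle library 1 (0.0296). Sars2, for serine, lay at 23.3, 19.5 and 26.1 CPM in vehicle and at 13.8, 12.7 and 27.6 in PEox. Its PEox library 3 exceeded every vehicle library while the other two lay below them all, and without that library Sars2 was called lower at -0.79 (edgeR adjusted p = 0.00764). Rars2, for arginine, at 59.1 ± 7.14 and 48.5 ± 4.90 CPM (SD, n = 3 each), was called lower without vehicle library 3 (0.0344) and with the stricter filter (adjusted p = 0.0322). The members with the lowest CPM in vehicle, Wars2 (7.24 ± 0.723 and 8.53 ± 2.96 CPM), Vars2 (7.51 ± 1.54 and 9.54 ± 3.15 CPM) and Mars2 (9.63 ± 1.65 and 8.11 ± 0.798 CPM; SD, n = 3 each), overlapped between the groups. So did Fars2 (0.21), Cars2 (-0.12), Yars2 (-0.082), Nars2 (-0.064) and Pars2 (-0.038), for phenylalanine, cysteine, tyrosine, asparagine and proline, with log2 fold changes in parentheses.

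The balance between the compartments differed little between the groups. With TMM scaling and summed over its members, the cytosolic class held 2743 ± 80.7 CPM with vehicle against 2727 ± 68.1 with PEox, and the mitochondrial class 497 ± 8.95 and 477 ± 7.56 CPM (SD, n = 3 each). The direction of these sums depended on the scaling. As a percentage of all counts, the cytosolic class held 0.265, 0.266 and 0.254 in vehicle and 0.277, 0.291 and 0.289 in PEox. The mitochondrial class held 0.0478, 0.0478 and 0.0466 in vehicle and 0.0496, 0.0492 and 0.051 in PEox. Both shares were higher in every PEox library than in any vehicle library. The log2 ratio of the sums, which no library scaling alters, was 2.47, 2.48 and 2.45 in vehicle and 2.48, 2.56 and 2.50 in PEox. The lowest PEox library was just above the highest vehicle library, and the means differed by 0.052, or 1.04-fold; without PEox library 2 the difference was 0.028. No test was made, since the ratio sums over chosen members.

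Ratios for single amino acids moved in both directions. Of 16 pairs of a cytosolic and a mitochondrial enzyme, the ratio of their counts was higher in PEox for 8 and lower for 8, and its values did not overlap between the groups for 3 pairs that were higher and 3 that were lower. Eprs served in the pairs of both glutamate and proline. Among single tested genes the groups did not overlap for 50.6%, and the share for pairs of other genes was not computed. For leucine the log2 ratio Lars to Lars2 went from -0.75, -0.64 and -0.45 in vehicle to 0.36, 0.16 and 0.31 in PEox, crossing 0, so that the mitochondrial gene had more counts in every vehicle library and the cytosolic gene in every PEox library. For glutamate (Eprs to Ears2) it rose by 1.39 and for threonine (Tars to Tars2) by 0.58. The opposite held for histidine, where Hars to Hars2 went from 2.06, 2.22 and 2.69 to 1.53, 1.48 and 1.19. For phenylalanine (both subunits to Fars2) the ratio fell by 0.84 and for alanine (Aars to Aars2) by 0.60 on the log2 scale, the latter although both genes rose. For isoleucine both genes rose and the ratio of Iars to Iars2 overlapped between the groups (difference -0.13). These ratios were not tested; 3 libraries against 3 allow no exact permutation p below 0.10.

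**Figure D3:**
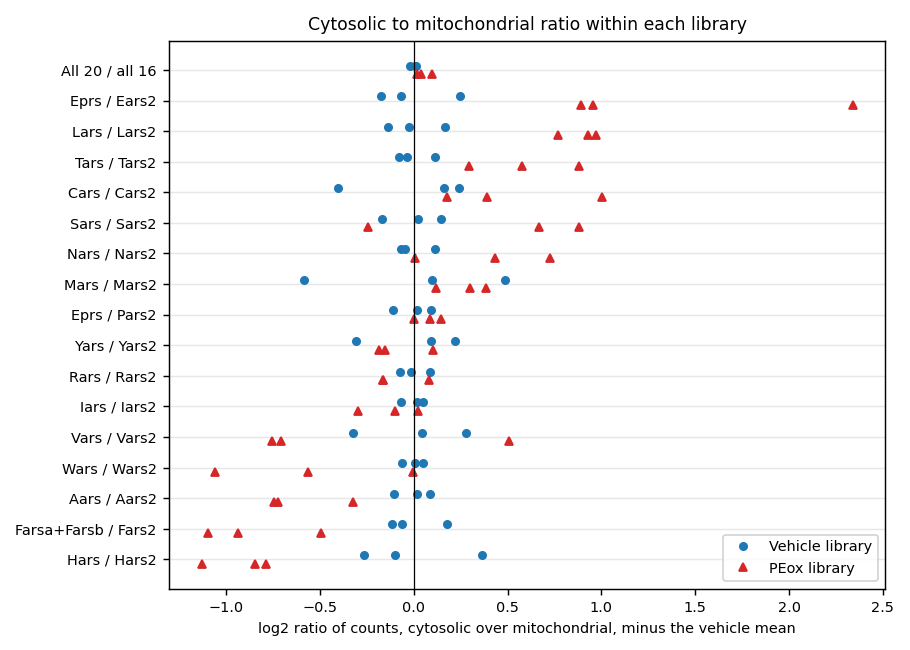
Log2 ratio of cytosolic to mitochondrial counts within each library, minus the vehicle mean, for 16 amino acid pairs and for the summed classes (top row); circles are vehicle and triangles PEox libraries. The 3 PEox triangles stand clear of the vehicle circles to the right for glutamate, leucine and threonine and to the left for alanine, phenylalanine and histidine, and the summed classes stay near 0.

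Genes of neighbouring steps were then counted, with TMM scaling and no correction for transcript length. Of 9 cytosolic elongation and termination genes 6 fell and 3 did not pass (median -0.52). Eef1a1, which carries charged tRNA to the ribosome and has processed pseudogenes that make its count uncertain, fell from 2672 ± 42.5 to a mean of 1865 ± 78.3 CPM (SD, n = 3 each), by 0.52 (log2; edgeR adjusted p = 3.03e-05). Its exchange factor subunits Eef1b2, Eef1d and Eef1g fell by 0.83, 0.96 and 0.64, and Eif5a, which relieves stalled ribosomes, by 0.80. Of 9 mitochondrial translation factors 2 fell and 1 rose (median -0.16): Tufm and Tsfm, which deliver mitochondrial tRNA, fell by 0.34 and 0.35, and Gfm2, which recycles ribosomes, rose by 0.79. Of 6 genes that remove mischarged amino acids or peptides from tRNA 3 fell, among them Aarsd1, an alanyl-tRNA editing gene, by 0.74 and Ptrh2, a peptidyl-tRNA hydrolase gene, by 0.87.

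Genes that make and move tRNA were mixed. Xpot, which exports tRNA from the nucleus, rose from 27.97, 30.1 and 32.1 CPM to 49.6, 60.5 and 77.3 (1.06 ± 0.16, SE; edgeR adjusted p = 0.00102), with no overlap. It stood with Trnt1, which adds the CCA end to which amino acids are joined (0.42), and Elac1 (0.53) among 3 of 18 maturation genes that rose, while 6 fell, among them the tRNA modification genes Trmt61a, by 0.80, and Pus1, by 0.66. Of 18 genes of RNA polymerase III and its factors, which transcribe tRNA genes, 7 rose and 2 fell (median 0.23). Gtf3c3 rose by 1.06, Polr3a by 0.55, and Maf1, the repressor of the polymerase, by 0.19. The 5 genes that form glutaminyl- and formylmethionyl-tRNA in mitochondria gave no call with edgeR, although 3 had an unadjusted p under 0.05, 2 were called with DESeq2 and 1 with limma-voom. Of 6 relatives outside the 36, Pstk, the selenocysteine pathway kinase gene, and Aarsd1 fell. Of 20 genes by which mTORC1 senses amino acids 4 rose and 4 fell, with Rragc rising by 0.55 and Lamtor5 falling by 0.81.

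**Figure D4:**
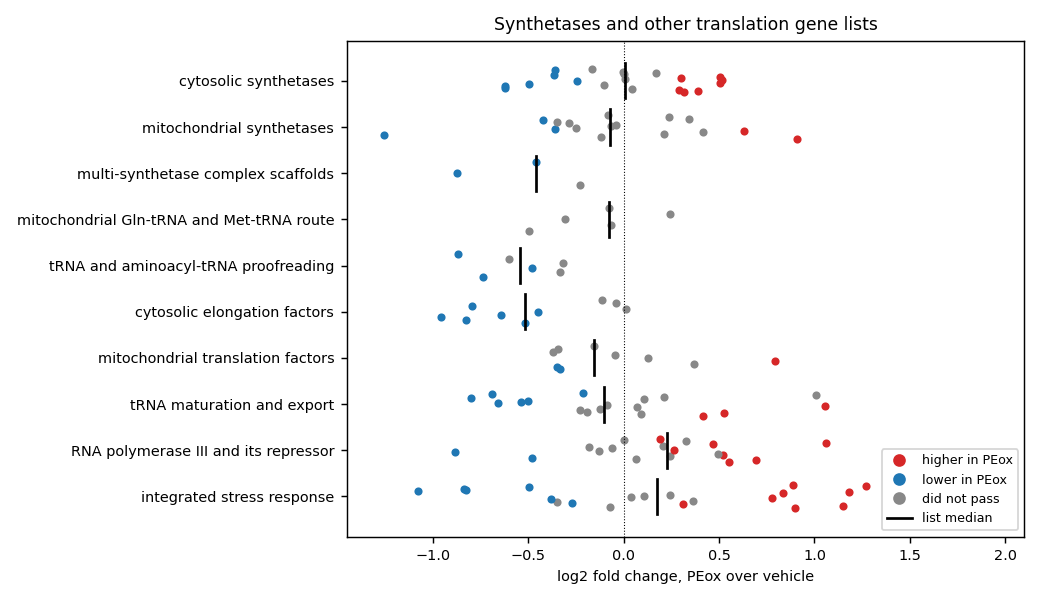
Log2 fold change of PEox over vehicle for every gene of the synthetase classes and of 8 related lists; points are genes, red higher, blue lower and grey not passing, and vertical bars are list medians. The synthetases spread to both sides of 0. Genes of the cytosolic elongation factor list, which also holds regulator and termination genes, lie below 0 around a median of -0.52, except Eef2k at 0.013.

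Among called genes, transcript length ran alongside the direction of the call. The 7 cytosolic genes that rose had a median principal transcript of 3222 bases (2175 to 5750), and the 6 that fell one of 2072 bases (1826 to 2831). The same held over all tested genes, at 3752 bases for genes called higher and 1687 for genes called lower. The 7 cytosolic genes that did not pass had a longer median than either, at 3570 bases (2380 to 4906). Mitochondrial medians were 4410 bases for the 2 genes that rose, 3228 for the 3 that fell and 3046 for the 11 that did not pass. With each library's trend on transcript length and GC content removed, 4 cytosolic genes were higher, Iars, Qars, Nars and Dars, and the calls of Lars (0.28, adjusted p = 0.0693), Aars (0.07, adjusted p = 0.49) and Cars (0.24, adjusted p = 0.2) were lost. Sars then turned to -0.19 and was called lower (adjusted p = 0.0276), as was Mars2 (-0.58, adjusted p = 0.0363), and the cytosolic median was -0.15. Farsa, Farsb, Hars, Wars, Aars2, Iars2 and Ears2 kept their direction and their call. The changes given above for genes of neighbouring steps are without this removal, and the part of transcript length in them was not tested. Whether the length relation comes from the cells or from the libraries was not tested.

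**Figure D5:**
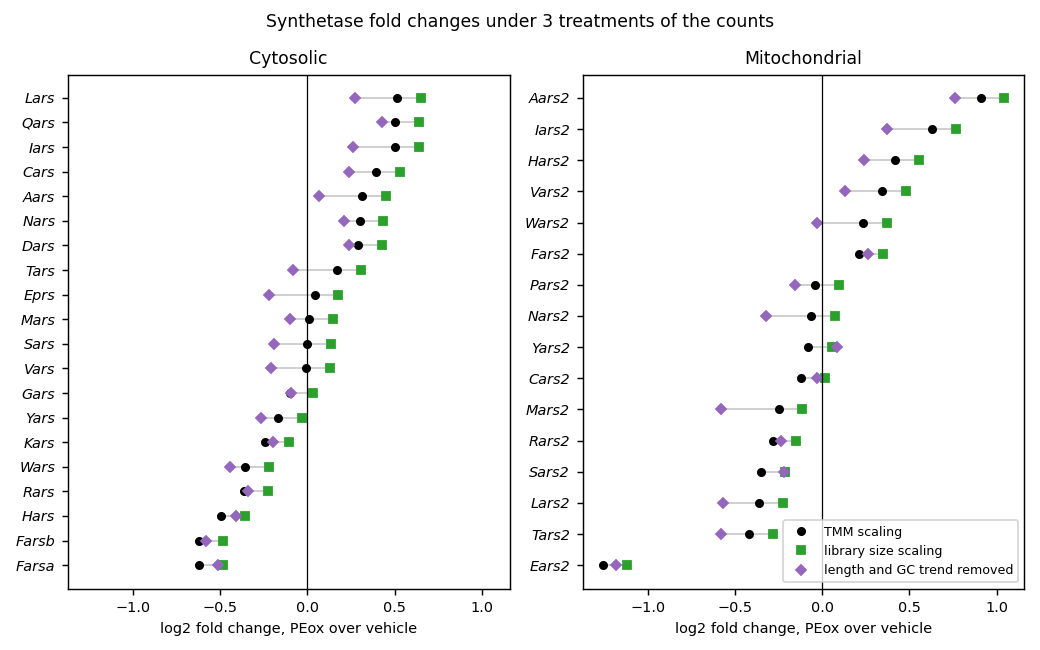
Log2 fold change of each synthetase gene with TMM scaling (circles), library size scaling (squares) and after removal of the length and GC trend (diamonds), joined by grey lines. Library size scaling moves every gene to the right, and trend removal moves most of them to the left; among the cytosolic genes Farsa, Farsb, Hars, Rars, Wars, Kars and Yars stay below 0 under all 3.

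Some counts share sequence with other genes, and the sources used here do not say whether counting used strand. Hars and Hars2, on opposite strands, share 195 exon bases in GENCODE M21. Iars2 shares 2034 exon bases, 22.9% of its own, with Rab3gap2 on the opposite strand, and Rab3gap2 rose by 0.56 (edgeR adjusted p = 0.00242) beside 0.63 for Iars2. Aars shares 1326 bases on the same strand with Exosc6, which lay at 0.213 ± 0.126 and 1.68 ± 2.67 CPM (SD, n = 3 each). Part of Iars, 1656 bases, is 96.0% identical to the pseudogene Gm4849, which lay at 0.106 ± 0.0612 and 0.151 ± 0.0419 CPM (SD, n = 3 each). Farsb shares 248 exon bases with Sgpp2, Fars2 501 with Nrn1, Vars2 465 with Gm20483, Cars2 422 with Naxd, Nars2 284 with C230038L03Rik and Cars 211 with the pseudogene Gm15580, all on the opposite strand. Reads of such stretches could be counted for either gene, so the counts of these synthetases are uncertain to that extent, and 115 bases or fewer were shared in other overlaps. No stretch of 150 bases or more with 95% identity joined a cytosolic enzyme to its mitochondrial counterpart, other than the overlap of Hars and Hars2.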

How the data were processed

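Per the labels' protocols, a company made the libraries and sequenced them on a NovaSeq instrument as paired reads; reads were cleaned with fastp and aligned with HISAT2 2.0.5, and edgeR 3.22.5 is named in the submitters' processing notes. The sources used here do not give the read counter, genome build, annotation or strand. The authors deposited raw counts per gene; 55141 of 55401 identifiers matched a symbol, the rest holding 0.015% to 0.0191% of counts, and 0 sample columns were unused. Within a group, libraries varied beyond sampling noise (chi-square per gene 16.5 to 38.2 within groups, 263 to 338 between) and each was kept as 1 replicate.

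Tests used edgeR 4.0.16 (R 4.3.3): filterByExpr (18253 genes kept), TMM factors, the robust quasi-likelihood test on group alone, Benjamini-Hochberg adjustment, threshold 0.05. Standard errors are the log2 fold change over the root of F; fold changes are on the log2 scale. A count of 3, the floor, equals 0.0472 to 0.0529 CPM. The script was tested on simulated data. It called 50 of 100 genes given a log2 change of 1, 69 of 100 given a change of 2, and 11 of 17058 unchanged genes. A gene that did not pass may thus still differ. Genes of the members' level were not simulated apart. Alternatives were RLE and library size scaling, 2 filters, DESeq2 1.42.0, limma-voom (limma 3.58.1), the replicate number as a block, removal of a loess trend (span 0.5) on length and GC, and each library left out. Near-identical copies were sought with BLAST 2.17.0. Members and lists (all 36 members are named, and of other lists up to 4 genes with small p) were chosen with earlier results of these data known; some genes outside that number are named after their values were seen. Some genes of these lists are not reported here.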

Additional observations from a re-analysis of the deposited data

How the results depend on the processing

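Of the 18 called synthetase genes 10 kept their call under all 14 alternatives, 12 kept it whichever library was left out, and 0 changed direction under any. With the length and GC trend removed 4 cytosolic genes were higher and the cytosolic median was -0.15; under library size scaling the class medians were 0.14 and 0.064 and 1 mitochondrial gene was lower, and 61.9% of all called genes were higher against 49.3% with TMM. Leaving out each library, cytosolic genes numbered 5 to 8 higher and 5 to 7 lower (median -0.0078 to 0.041), mitochondrial genes 2 to 3 higher and 0 to 3 lower (median -0.16 to -0.053), all genes 2530.0 to 3113 higher and 2738 to 3480.0 lower, and the compartment ratio differed by 0.028 to 0.068. Log2 fold changes of uncalled genes crossed 0 with library size scaling for Gars (0.036), Vars (0.13), Cars2 (0.017), Nars2 (0.073), Pars2 (0.098) and Yars2 (0.054); with the trend removed for Eprs (-0.22), Mars (-0.10), Sars (-0.19), Tars (-0.082), Wars2 (-0.031) and Yars2 (0.084); with the 5 CPM filter for Mars (-0.0022) and Sars (-0.013); with no filter for Mars (-0.0065) and Sars (-0.015); with limma-voom for Sars (-0.0012); and with DESeq2 and RLE scaling for Vars (0.0014 each). With single libraries left out they ranged from -0.017 to 0.089 for Eprs, -0.21 to 0.016 for Gars, -0.15 to 0.13 for Mars, -0.037 to 0.030 for Sars, -0.11 to 0.087 for Vars, -0.22 to 0.0015 for Cars2, -0.25 to 0.096 for Nars2, -0.11 to 0.0030 for Pars2 and -0.074 to 0.44 for Wars2. Vehicle and PEox libraries with the same number did not deviate together (correlations 0.005, 0.014 and -0.006 across genes), and with the replicate block 3018 genes were higher and 3141 lower, with every member's call unchanged. Causes were not tested. The lowest count of any member in a library was 195, and the largest standard error was 0.33, both for Ears2.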
